A study of Mus musculus with 12 samples.

Results

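The regions described are 704 broad H3K4me3 domains of mouse small-intestinal crypts, of 16489 H3K4me3 peaks called in that compartment. A domain was taken when its crypts peak spanned 4 kb or more, overlapped a villi H3K4me3 peak by at least 1 bp and overlapped no crypts H3K27me3 peak. The domains made up 4.27% of the peaks and held 12.4% of the bases of the list, 3.67 Mb. Of the 719 crypts peaks of 4 kb or more, 12 were left out for H3K27me3 and 3 for the lack of a villi peak. The width in crypts, the presence of a villi peak and the absence of H3K27me3 in crypts thus chose the domains and are given as a description.

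Chromatin of crypts and villi was immunoprecipitated for 5 modifications of histone H3 (H3K4me3, H3K4me1, H3K27me3, H3K9me3 and H3K9me2), with 1 library per compartment and modification. Crypts hold the stem and dividing progenitor cells of the epithelium together with Paneth cells, and villi hold mainly differentiated enterocytes. Villi were scraped off with glass coverslips and crypts were released from the remaining tissue with EDTA, so both are fractions of mixed cells and not sorted populations. Neither the labels nor the methods used here give the strain, sex, age or number of the animals behind the libraries, and no treatment or genetic change is named for either group. With 1 library per group differences between crypts and villi could not be held against a replicate error, and no test was made between them.

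Trimethylation of lysine 4 of histone H3 (H3K4me3) marks active and poised promoters, where it usually covers a short stretch around the transcription start site. Its unusually wide domains are known for lying at genes that hold the identity of a cell type. H3K4me1 borders promoters and marks enhancers, and H3K27me3 is the mark of Polycomb repression. For this reason wide H3K4me3 without H3K27me3 is read separately from the bivalent promoters that carry both.

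The tissue label was checked on marker genes. Start sites of Epcam, Cdh1, Krt8, Vil1, Cdx1 and Cdx2, which mark intestinal epithelium, lay in domains, and that of Krt18 lay in a narrower peak (2523 bp in crypts, 2403 bp in villi). None of the 20 lymphocyte markers and none of the 16 mesenchymal and endothelial markers had a start site in a domain. Ptprc and Cd3e, markers of leukocytes and T cells, had a start-site peak in villi of 1608 bp and 1181 bp and none in crypts, as had Kdr, an endothelial marker, with 582 bp. Cd8a, Col1a1, Col1a2, Acta2 and Pecam1 had none in either compartment. Peaks in both were at Ikzf1 (1141 bp in crypts, 1097 bp in villi) and Ikzf3 (558 bp and 1345 bp) of the lymphocyte list. Of the mesenchymal list they were at Vim (1534 bp and 1734 bp) and Pdgfra (1014 bp and 1369 bp). Of markers of secretory and tuft cells, Lyz1, Defa24 and Mmp7 (Paneth cells), Muc2 and Tff3 (goblet cells), Chga and Neurod1 (enteroendocrine cells) and Dclk1 and Trpm5 (tuft cells) had no start-site peak in either compartment. Pou2f3, also of tuft cells, had one of 747 bp in crypts alone. The part of other cell types in the widths was not tested. A peak list gives the extent of a mark and not the number of cells that carry it, so a change of width and a change of the cells in a fraction cannot be told apart.

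Promoter sequences from RefSeq (GRCm38.p6) are shown for 4 intestinal transcription factors and for the domains with the lowest and the highest ratio of villi to crypts width, to show the base composition under wide H3K4me3. Each is the stretch upstream of the start site that carries no exon, 5′ to 3′ on the strand of the gene, with each CpG in capitals.
Cdx2 chr5:147307271-147307499 (- strand): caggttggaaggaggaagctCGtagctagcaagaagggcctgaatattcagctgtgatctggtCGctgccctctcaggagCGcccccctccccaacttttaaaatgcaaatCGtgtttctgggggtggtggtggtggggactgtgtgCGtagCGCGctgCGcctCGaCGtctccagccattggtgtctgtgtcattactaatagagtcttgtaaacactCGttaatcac
Elf3 chr1:135258569-135258722 (- strand): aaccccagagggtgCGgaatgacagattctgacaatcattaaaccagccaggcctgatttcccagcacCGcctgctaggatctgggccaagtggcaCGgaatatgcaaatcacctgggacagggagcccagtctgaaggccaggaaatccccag
Vdr chr15:97908311-97908546 (- strand): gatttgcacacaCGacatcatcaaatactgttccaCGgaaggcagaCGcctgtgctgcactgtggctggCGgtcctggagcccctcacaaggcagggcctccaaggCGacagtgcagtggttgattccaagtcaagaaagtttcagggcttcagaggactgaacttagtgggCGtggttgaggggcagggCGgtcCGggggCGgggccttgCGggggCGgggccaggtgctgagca
Isx chr8:74872924-74873172 (+ strand): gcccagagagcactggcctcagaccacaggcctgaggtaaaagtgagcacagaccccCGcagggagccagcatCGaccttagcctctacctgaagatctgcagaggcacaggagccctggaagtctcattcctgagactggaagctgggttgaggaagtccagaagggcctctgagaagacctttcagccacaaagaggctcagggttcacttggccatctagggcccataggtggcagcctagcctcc
Hacd1 chr2:14056136-14056285 (- strand): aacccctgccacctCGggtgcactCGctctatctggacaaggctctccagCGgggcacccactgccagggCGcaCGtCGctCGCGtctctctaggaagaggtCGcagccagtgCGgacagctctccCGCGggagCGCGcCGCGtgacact
Rnf167 chr11:70647059-70647234 (+ strand): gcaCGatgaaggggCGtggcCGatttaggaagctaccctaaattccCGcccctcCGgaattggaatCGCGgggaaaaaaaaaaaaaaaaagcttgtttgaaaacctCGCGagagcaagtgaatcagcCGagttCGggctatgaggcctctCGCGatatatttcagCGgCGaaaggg
The stretches of Hacd1 and Rnf167, the lowest and the highest of the width ratios, held 10.7 and 8.52 CpG per 100 bp. Those of Cdx2 and Vdr held 4.80 and 4.66 CpG per 100 bp. Elf3 with 1.95 and Isx with 0.803 CpG per 100 bp lay in domains of 7901 bp and 6641 bp. The stretch of Elf3 ends 96 bases and that of Hacd1 100 bases before the start site, so the bases nearest to it were not counted there. Over the 250 bp upstream of the start site of 16515 coding genes in the RefSeq table, CpG occurred in 92.9% of promoters with a median of 4 per 100 bp (quartiles 1.2 and 7.6), in full windows and not in stretches shortened at exons. Rnf167 shares its upstream stretch with Slc25a11, which is transcribed in the opposite direction.

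Several domains held precursors of microRNAs, short RNAs that pair with messages through their seed, bases 2 to 8 of the mature strand. The mature strands of 7 of them are given from RefSeq (GRCm38.p6), 5′ to 3′, with the seed in capitals, grouped by seed. They were singled out after their values were seen, as members of the miR-200 family and other microRNAs known from gut epithelium.
mmu-miR-200b-3p chr4:156055685-156055706 (- strand): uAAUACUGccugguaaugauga
mmu-miR-200c-3p chr6:124718324-124718346 (- strand): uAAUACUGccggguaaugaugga
mmu-miR-200a-3p chr4:156054911-156054932 (- strand): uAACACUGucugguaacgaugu
mmu-miR-141-3p chr6:124717917-124717938 (- strand): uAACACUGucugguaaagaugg
mmu-miR-21a-5p chr11:86584120-86584141 (- strand): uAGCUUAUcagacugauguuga
mmu-miR-192-5p chr19:6264857-6264877 (+ strand): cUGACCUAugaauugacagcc
mmu-miR-194-5p chr19:6264658-6264679 (+ strand): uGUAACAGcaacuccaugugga
The miR-200 family is known for keeping cells epithelial. Members of its 2 clusters lay in separate domains, and each of these domains held 1 microRNA of the seed AAUACUG and 1 of the seed AACACUG. The domain with Mir200a and Mir200b (chr4:156054435-156060262) measured 5828 bp in crypts and 6286 bp in villi. The domain with Mir141 and Mir200c (chr6:124716436-124721787) measured 5352 bp in crypts and 3993 bp in villi, a log2 ratio of -0.42. Mir21a lay in a domain that measured 6949 bp in crypts, and 6930 bp in villi, inside the gene Vmp1. Mir192 and Mir194-2 shared a domain with widths of 4186 bp (crypts) and 4205 bp (villi). In all, 21 domains (2.98%, 95% Wilson interval 1.96 to 4.52%) held an annotated precursor, where 1.04% of all crypts H3K4me3 peaks did. Longer regions have more room for a precursor, and no correction for length was made. Intervals in the text cover counting error only.

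Most domains were nearly as wide in villi as in crypts. Width is the extent of called peaks and does not give the level of the mark. The authors report that H3K4me3 intensity, scaled by the spike-in, was strongly lower in villi. Domain width in crypts ran from 4001 bp to 13684 bp, with a median of 4791 bp and quartiles of 4322 bp and 5608 bp. The summed width of the villi peaks that met a domain had a median of 4907 bp and quartiles of 4287 bp and 6034 bp. The log2 ratio of villi to crypts width had a median of 0.02 and quartiles of -0.10 and 0.14, beside a median of -0.03 over all 15388 crypts peaks with a villi peak. A villi peak of 4 kb or more met 569 of the domains (80.8%, 77.8 to 83.6%). It met 6.10% of all crypts H3K4me3 peaks and 6.55% of the shared peaks of 2 to 4 kb without H3K27me3. The domains were chosen as 4 kb or more in crypts and with a villi peak, so this difference follows in part from the rule.

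By a 1.5-fold limit, 32 domains (4.55%, 3.24 to 6.35%) were narrower in villi and 28 (3.98%, 2.77 to 5.69%) were wider. Over all crypts peaks with a villi peak the shares were 4.14% narrower and 5.83% wider. The rule chose on crypts width, so nothing is read from these shares. The same rule turned round took 881 villi peaks of 4 kb or more, and among those 3 were narrower in villi and 96 (10.9%) wider, with a median log2 ratio of 0.14. Of the domains, 566 (80.4%) met a peak of that set.

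**Figure D1:**
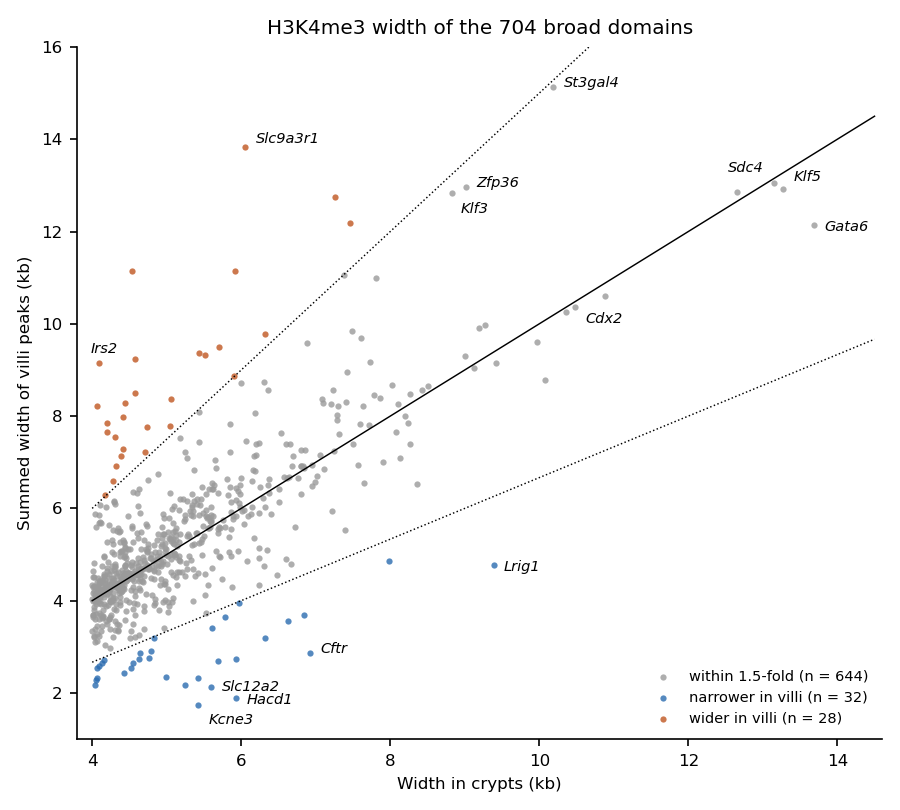
Width of each of the 704 domains in crypts (horizontal axis, kb) against the summed width of the villi peaks that meet it (vertical axis, kb), 1 point per domain. The solid line marks the same width and the dotted lines 1.5-fold, past which lie 32 narrower (blue) and 28 wider (orange) domains.

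The share of domains with a villi peak of 4 kb or more is given by crypts width, where a wider start clears the fixed limit more easily by construction. Of the 404 domains of 4 to 5 kb in crypts, 73.8% met a villi peak of 4 kb or more. The share was 87.8% of the 172 domains of 5 to 6 kb and 91.9% of the 99 domains of 6 to 8 kb. All 20 domains of 8 to 10 kb and all 9 of 10 kb or more met such a peak. The log2 ratio itself had medians between -0.02 and 0.03 in these 5 classes of width. At the limit itself, the domains of Diaph1 (4001 bp), Gm45871 (4002 bp) and Plcb3 (4003 bp) were just inside, with villi widths of 4042, 3334 and 4345 bp. Peaks of Ccdc71l (3999 bp), Usp38 (3999 bp) and Myo7b (3998 bp) were just outside, with villi widths of 4299, 3956 and 5749 bp.

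Of the 20 widest domains in crypts, those of the transcription factors Gata6, Klf5, Cdx2 and Gata4 are given first. Gata6, a zinc finger factor of the endoderm, had the widest (chr18:11047178-11060861), with 13684 bp in crypts and 12138 bp in villi, there in 2 peaks. Klf5, a Krüppel-like factor of dividing epithelium, had 13275 bp in crypts and 12915 bp in villi (chr14:99294540-99307814). Cdx2, the homeobox factor that specifies intestine, had 10486 bp and 10371 bp (chr5:147299069-147309554) and the domain covered the whole gene. Gata4 had 10082 bp in crypts and 8784 bp in villi, and a second domain of the gene had 4702 bp and 3773 bp.

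The other genes of the 20 widest had varied roles, further transcription factors such as Osr2, Zbtb7a, Nr3c1 and Klf3 included. Sdc4, a heparan sulphate proteoglycan, had 13147 bp in crypts and 13056 bp in villi. The H3K4 methyltransferase gene Setd1b had 10881 bp and 10606 bp, and Tnrc18 had 12650 bp and 12855 bp. The intestinal cadherin gene Cdh17 had 8503 bp and 8655 bp. Widths of Osr2, Zfp503, Bahcc1, Smad7, Atp1b1, Zbtb7a, Prr15l and Nr3c1 ranged from 8425 bp to 10356 bp in crypts and from 8574 bp to 10261 bp in villi.

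Only 4 of the 20 widest differed in width by more than 3 kb between the compartments. Lrig1, an inhibitor of ErbB receptors and a stem cell marker, had 9386 bp in crypts and 4782 bp in villi. St3gal4, a sialyltransferase gene, went from 10187 bp to 15141 bp, Zfp36 from 9014 bp to 12955 bp and Klf3 from 8827 bp to 12845 bp. The villi peaks of these last 3 also met further crypts peaks, so part of their villi width belonged to peaks that were called apart in crypts.

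**Figure D2:**
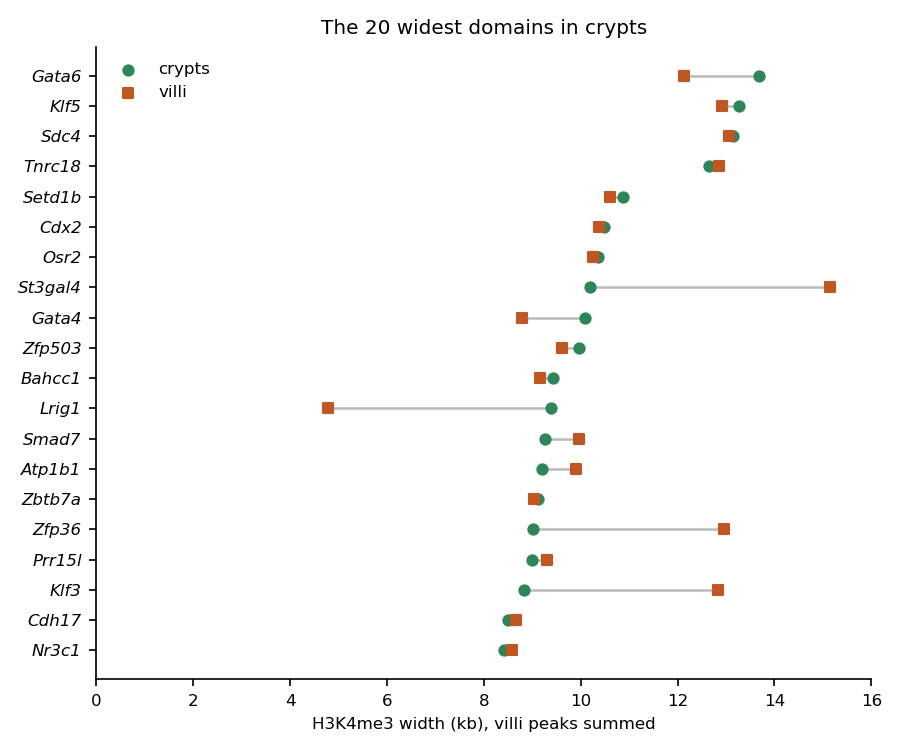
H3K4me3 width in kb of the 20 domains that were widest in crypts, with crypts as green circles and the summed villi peaks as orange squares, 1 library each. Most pairs nearly coincide, and Lrig1 (9386 to 4782 bp) and St3gal4 (10187 to 15141 bp) lie farthest apart.

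The 8 lowest ratios of villi to crypts width were at genes of varied roles. Hacd1, which acts in the elongation of very long fatty acids, had the lowest ratio, with 5927 bp in crypts, 1888 bp in villi and a log2 ratio of -1.65 (chr2:14054279-14060205). Kcne3, a potassium channel subunit, had 5419 bp and 1739 bp. Slc12a2, the basolateral cotransporter of sodium, potassium and chloride, had 5598 bp and 2122 bp, with no villi peak at its start site. Cftr, the apical chloride channel, had 6924 bp and 2855 bp. These 3 genes act together in intestinal chloride secretion. Cdca7 (5419 bp and 2323 bp) and E2f8 (4990 bp and 2342 bp) are genes of the dividing cell. Coq8a, of coenzyme Q synthesis, had 5240 bp and 2167 bp, and Vars, a valyl-tRNA synthetase, had 5928 bp and 2725 bp.

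At the other end of the ratio, the genes had varied roles. Slc9a3r1, the scaffold NHERF1 of the brush border, went from 6057 bp in crypts to 13832 bp in villi, a log2 ratio of 1.19 (chr11:115162195-115168251). Igsf9 went from 4575 bp to 9235 bp and Eps8l2, a regulator of actin, from 4434 bp to 8277 bp. The actin regulator gene Vasp went from 4065 bp to 8228 bp, the insulin receptor substrate Irs2 from 4086 bp to 9141 bp, and the divergent pair Mdh1 and Wdpcp from 4194 bp to 7843 bp.

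Joining of neighbouring peaks took part in several of these ratios. The highest, 1.30, was that of Rnf167 and Slc25a11, with 4535 bp in crypts and 11138 bp in villi. The same villi peak also covered the domain of the actin-binding protein Pfn1 (5923 bp in crypts), and the crypts peaks together measured 10458 bp, which gives a log2 ratio of 0.09. Villi peaks of 30 domains met a further crypts peak, and 17 of these were among the 28 wider domains. When the villi width was set against all crypts peaks under it, an alternative chosen after the data were seen, 12 domains were wider and 32 narrower. Under that measure Irs2 came to 0.20 and Vasp to 0.26, below the limit. In the other direction, 52 domains (7.39%, 5.68 to 9.56%) were broken into several villi peaks, beside 1.56% of shared peaks of 2 to 4 kb without H3K27me3. With the widest villi peak alone in place of the sum, 53 domains were narrower.

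Start sites of protein-coding genes lay in 664 of the domains (94.3%, 92.4 to 95.8%), where 69.6% of all crypts H3K4me3 peaks held one. The share was 93.4% among the shared peaks of 2 to 4 kb without H3K27me3. Of the domains, 575 held the start sites of 1 gene, 83 of 2 genes and 6 of 3 or more. Of the pairs, 57 were divergent. The domains reached 752 genes, 3.43% of the 21910 protein-coding genes of the annotation and 6.20% of the 12125 genes with a crypts H3K4me3 peak at a start site. Casz1, Gata4, Rbm47, Rpl18, Sesn1, Shroom3 and Sphk2 had start sites in 2 domains each.

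No coding start site lay in 40 domains. Of these, 19 held the start site of another kind of transcript. The domain over the long noncoding RNA Malat1 (chr19:5797125-5804404) measured 7280 bp in crypts and 8032 bp in villi. A domain 3320 bp from Cps1, the carbamoyl phosphate synthetase of the urea cycle that enterocytes also use, went from 7990 bp in crypts to 4856 bp in villi. A domain 5671 bp from Foxa1 measured 5550 bp and 4339 bp, beside the domain over the Foxa1 start site with 6504 bp in crypts. In villi the latter met 2 peaks, together 6141 bp, and no villi peak held the start site.

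The 10 gene lists were chosen with earlier results of these data known, so their shares are a description and no independent support. Of all protein-coding genes 3.43% had a start site in a domain, and of genes with a crypts H3K4me3 peak at a start site 6.20%. Of the 10 lists, that of intestinal transcription factors had the largest share in domains, 20 of 32 (62.5%, 45.3 to 77.1%). Among them were Cdx1, Cdx2, Ehf, Elf3, Foxa1, Foxa3, Gata4, Gata5, Gata6, Hnf4a, Hnf4g, Isx, Klf3, Klf5, Maf, Nr5a2, Tcf7l2 and Vdr. Their 21 domains had a median log2 ratio of -0.02, from -0.32 to 0.54, and none passed 1.5-fold by summed villi width. By the widest villi peak alone, Ehf, with 2 villi peaks, came to -0.72, past the limit, and the median to -0.04. Hnf4a and Hnf4g, nuclear receptors of the enterocyte programme, had 5783 bp and 5217 bp in crypts and 5599 bp and 6209 bp in villi. Elf3, an epithelial Ets factor, had 7901 bp and 7012 bp, and Isx, a homeobox factor that controls vitamin A uptake, had 6641 bp and 6683 bp. Cdx1 had 5022 bp in crypts and 4254 bp in villi, and Gata5 had 6183 bp and 8062 bp.

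Stem and progenitor genes were in domains in 10 of 25 cases (40.0%, 23.4 to 59.3%), and each of the 10 domains was narrower in villi, with a median log2 ratio of -0.30. Below the 1.5-fold limit lay Slc12a2 (-1.40) and Lrig1 (-0.97). No villi peak held a start site of Slc12a2, so the gene is not among the 23 below. Rgmb, a BMP co-receptor, had 6237 bp in crypts and 4349 bp in villi. The Wnt target Axin2 had 6310 bp and 4754 bp, the Wnt receptor ligase Rnf43 had 6727 bp and 5607 bp, and the cell cycle kinase Cdk6 had 5020 bp and 3979 bp. Ccnd1, Myc, Sox9 and Lgr4 had log2 ratios from -0.24 to -0.06. Ccnd1, a cyclin gene, met 2 villi peaks, and by the widest alone (2883 bp of 6169 bp) its ratio was -1.10. After merging of peaks under 1 kb apart it was -0.03, while Rgmb with -0.77 and Axin2 with -0.63 then lay past the limit. Over all 23 genes of the list with a start-site peak in both compartments, in domains or not, the median by the widest start-site peak of each gene was -0.52 and 1 was wider in villi. By the widest villi peak the median of the 10 domains was -0.43.

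Enterocyte and brush border genes were in domains in 17 of 30 cases (56.7%, 39.2 to 72.6%), with a median log2 ratio of 0.27, and 16 of the 17 domains were wider in villi to some degree. The remaining one, of the sucrase gene Sis, had 5894 bp in crypts and 5829 bp in villi. Past 1.5-fold lay Anpep, the brush border aminopeptidase N, with 7258 bp and 12739 bp, Dgat1, of triglyceride synthesis, with 4307 bp and 7541 bp, Krt20, with 5437 bp and 9376 bp, and the retinol carrier Rbp2, with 5057 bp and 8363 bp. Set against all crypts peaks under the villi peak, Dgat1, Krt20 and Rbp2 came to 0.50, 0.44 and 0.41, below the limit. The glucose transporter Slc5a1 had 7812 bp in crypts and 10993 bp in villi, the peptide transporter Slc15a1 5434 bp and 7434 bp, and Vil1, the actin bundler of microvilli, 7085 bp and 8368 bp. Apob and Mttp, of chylomicron assembly, had 4417 bp and 5159 bp in crypts and 5320 bp and 5269 bp in villi. Of the 28 genes of the list with peaks in both compartments, 27 were wider in villi by the widest start-site peak. Over all 704 domains, 302 (42.9%, 39.3 to 46.6%) were narrower in villi to any degree, and over all crypts peaks with a villi peak 8636 of 15388 were, the background for the directions of both lists. The counts of direction in both lists were the same by the widest villi peak alone and over all crypts peaks under it.

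**Figure D3:**
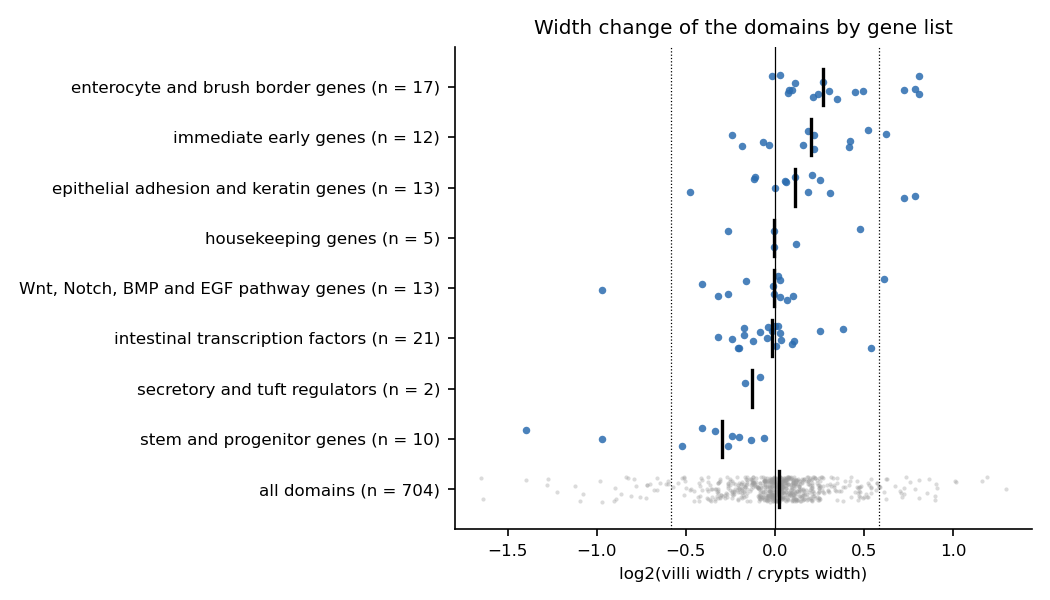
log2 ratio of villi to crypts width (horizontal axis) for all 704 domains (grey) and for domains with a gene of each list (blue), 1 point per domain, with a black bar at the median and dotted lines at 1.5-fold. The stem and progenitor domains lie left of 0 and 16 of the 17 enterocyte domains lie right of it.

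The remaining lists with domains had median log2 ratios between those of the stem and the enterocyte list. Epithelial adhesion and keratin genes were in domains in 13 of 26 cases, with a median log2 ratio of 0.11. Krt8 had 7307 bp in crypts and 7604 bp in villi, Cdh1 4724 bp and 5113 bp, and the claudin Cldn15 4413 bp and 7284 bp (log2 ratio 0.72, or 0.15 over all crypts peaks under the villi peak), while Krt19, a keratin also found in stem cells, had 6672 bp and 4790 bp. Immediate early genes were in domains in 12 of 28 cases, with a median of 0.21, and 8 of the 12 domains were wider in villi to some degree and 4 narrower. Junb had 5854 bp and 7830 bp, Fosl2 5045 bp and 7780 bp, Atf3 4223 bp and 5633 bp and Fos 5086 bp and 5674 bp. On the other side, Myc had 5861 bp and 4967 bp, Nr4a2 4098 bp and 3612 bp, Ier2 6316 bp and 6027 bp and Zfp36l1 8192 bp and 8001 bp. Pathway genes of Wnt, Notch, BMP and EGF were in domains in 13 of 38 cases, with a median of -0.01. The Notch target Hes1 had 6078 bp in crypts and 4863 bp in villi, the Wnt receptor Fzd5 8262 bp and 7388 bp, the BMP targets Id1 and Id3 had log2 ratios of 0.01 and 0.07, and the receptor Erbb3 had 4713 bp and 7220 bp (log2 ratio 0.62, or 0.28 over all crypts peaks under the villi peak).

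Secretory and tuft regulators were in domains in 2 of 17 cases (11.8%, 3.29 to 34.3%), Foxa1 and Sox4, and housekeeping genes in 5 of 20 cases (25.0%, 11.2 to 46.9%), where the share of all protein-coding genes was 3.43%. The housekeeping genes were Actb, Actg1, Hspa8, Tbp and Ywhaz, from 4204 bp to 5984 bp in crypts. Their domains were wider in villi to some degree in 2 cases and narrower in 3. Both domains of the secretory and tuft list were narrower to some degree. Among families taken by symbol, 3 of 6 Gata genes and 5 of 17 Klf genes were in domains. Of the AP-1, ATF, C/EBP and Maf family the count was 10 of 29. It was 13 of 394 for Zfp zinc finger genes (3.30%) and 20 of 383 for solute carriers (5.22%), both near the share of all protein-coding genes. It was 1 of 83 for ribosomal protein genes and 0 of 1091 for olfactory receptors, of which 1 had a crypts peak at a start site. Of the replication-dependent histone genes, 13 of 67 were in domains but shared 4 regions, where neighbouring short genes lie under 1 peak.

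The domains reached mainly into the gene body. In the 575 domains with 1 coding gene, a median of 80.2% of the width lay downstream of the first start site inside the domain, beside 71.1% in shared peaks of 2 to 4 kb without H3K27me3. Median extent was 3805 bp downstream and 1013 bp upstream, beside 1816 bp and 743 bp in the compared peaks. More than 50% of the width lay downstream in 547 domains, and 33 domains covered the whole gene. Over all domains, 60.6% of the bases lay in introns, 18.6% in exons and 20.8% outside protein-coding genes. These shares were 57.4%, 19.8% and 22.9% in the compared peaks of 2 to 4 kb, near those of the domains. Over all crypts H3K4me3 peaks they were 53.1%, 20.1% and 26.8%.

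Changes of width between compartments were mostly on the downstream side. Of 506 such domains that met 1 villi peak which met no other crypts peak, the median shift was 94 bp at the upstream edge and 286 bp at the downstream edge, regardless of direction. The downstream edge shifted more in 366 (72.3%). In the 24 of these that were narrower in villi, the median shift was -210.5 bp upstream and -1807 bp downstream, where negative values mean inward. In the 10 that were wider, it was 100.5 bp upstream and 3170 bp downstream. The edges of Lrig1 shifted by -4349 bp downstream and -255 bp upstream, and those of Cftr by -3864 bp and -205 bp. Anpep extended by 4708 bp downstream and by 773 bp upstream, and Igsf9 by 4632 bp and 28 bp. Hacd1 and Vars differed from these, with shifts of -3652 bp and -2668 bp on the upstream side.

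**Figure D4:**
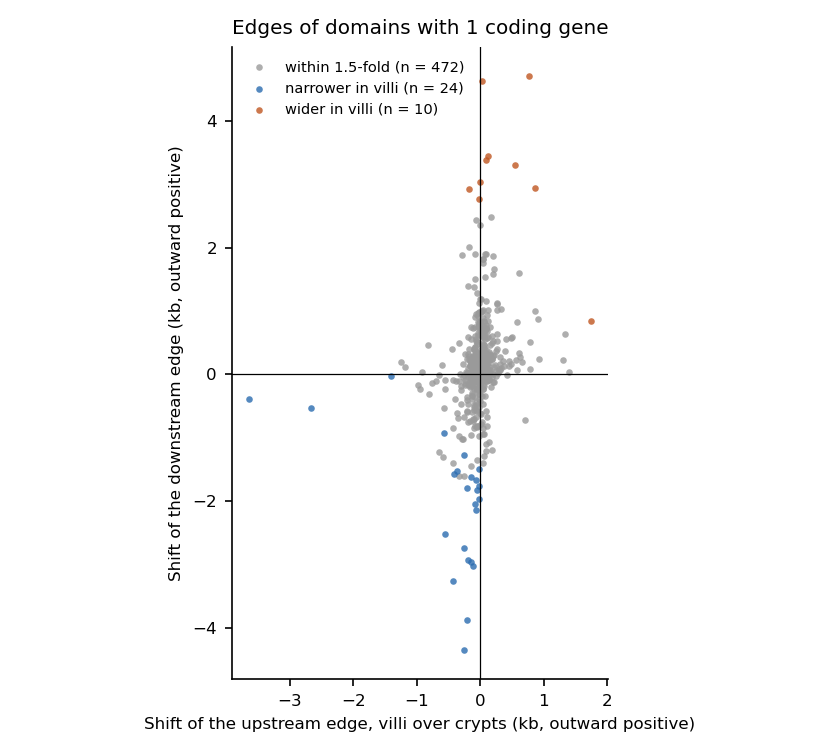
Shift of the upstream edge (horizontal axis, kb) and of the downstream edge (vertical axis, kb) from crypts to villi in 506 domains with 1 coding gene and 1 villi peak, with outward shifts positive. The narrower (blue) and wider (orange) domains spread along the downstream axis, apart from a few such as Hacd1 at the far left.

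Of the bases of the domains, 93.3% were also under H3K4me3 in villi. The part without villi H3K4me3 came to 245 kb, and 89.2% of it was under H3K4me1 in crypts and 77.8% in villi. In the 32 narrower domains the shared part was 53.2%. Of their 80.1 kb without villi H3K4me3, 81.6% was under H3K4me1 in villi and 1.77% under H3K27me3. Villi peaks extended over 300 kb that carried no H3K4me3 peak in crypts, of which 88.6% was under H3K4me1 in crypts. In the 28 wider domains this part came to 70.8 kb and the share was 95.9%. No background was taken for the shares of this paragraph. H3K4me1 met 91.5% of all crypts H3K4me3 peaks, so neither an order of the marks nor a trait of the domains is read from these shares.

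H3K4me1 peaks met nearly every domain, 699 in crypts (99.3%, 98.3 to 99.7%) and 685 in villi (97.3%, 95.8 to 98.3%), where 91.5% and 87.9% of all crypts H3K4me3 peaks met one. Of the shared peaks of 2 to 4 kb without H3K27me3, 97.5% met one in crypts and 94.4% in villi. A longer region meets a peak more easily, and no correction for length was made. On both flanks, within 1 kb of the edges, H3K4me1 lay at 574 domains in crypts (81.5%, 78.5 to 84.2%) and at 478 in villi (67.9%, 64.4 to 71.2%). In the shared peaks of 2 to 4 kb these shares were 70.5% and 53.4%. Peaks of H3K4me1 covered a median of 56.9% of the width of a domain in crypts and 49.8% in villi. The medians were 52.2% and 46.4% in the shared peaks of 2 to 4 kb, and 61.4% and 57.5% over all crypts H3K4me3 peaks.

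H3K27me3, absent from the domains in crypts by the rule, met 6 of them in villi (0.852%, 0.391 to 1.85%), where 2.76% of all crypts H3K4me3 peaks without crypts H3K27me3 met it. In the shared peaks of 2 to 4 kb the share was 1.07%, inside the interval of the domains. The largest share was at Slc12a2, where villi H3K27me3 covered 29.7% of the domain, followed by Lipg, an endothelial lipase gene, with 22.5%. The second Gata4 domain had 13.8%, E2f8 10.1%, the Wnt target Sp5 10.0% and Mycn 9.21%. Slc12a2, E2f8 and Lipg (4088 bp in crypts, 2583 bp in villi) were also narrower in villi by over 1.5-fold, and Sp5 was not, with 4220 bp and 4418 bp. No domain met an H3K9me3 peak in either compartment (0 of 704, upper limit of the interval 0.543%), where 0.0728% of all crypts H3K4me3 peaks met H3K9me3 in crypts and 0.0546% in villi.

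The sequence under the domains was less rich in CpG than that under narrower promoter peaks. The ratio of observed to expected CpG had a median of 0.518 in the domains (quartiles 0.370 and 0.656), 0.633 in the shared peaks of 2 to 4 kb and 0.595 in all crypts peaks. CpG per 100 bp had medians of 3.51, 4.42 and 4.22, and GC content 52.2%, 53.4% and 53.9%. A wider region takes in more sequence away from its start site, and the part of that in these medians was not tested. The score of the peak caller ranked the domains high, with a median percentile of 79.8 in the list, and 185 of them (26.3%, 23.2 to 29.7%) were in its top 10%. In the shared peaks of 2 to 4 kb the median percentile was 74.1, and 999 of 4749 were in the top 10%. Of the domains, 17 (2.41%) lay on chromosome X, beside 2.64% of all crypts peaks.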

How the data were processed

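Peak lists of 10 libraries were analysed, crypts and villi with 1 library per modification, of 12 libraries in all. Per the methods and the submitters' processing notes, the authors aligned reads with Bowtie 1.1.2 to mm10 and dm6, the genome of the spike-in, and called peaks with MACS2 2.1.1. The deposited lists give positions and a value per peak that was taken as the −log10 p-value of the authors, because no peak had a value under the 10 that the stated threshold gives, and it may be a q-value on that scale. Without read counts in the lists depth is unknown, and no width was scaled by the spike-in.

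Widths are end minus start as the lists count (from 0) on mm10, of which GRCm38 is the assembly, and printed starts count from 1. Villi width is the sum over the villi peaks that overlap a domain by 1 bp or more, and the limit for narrower or wider was 1.5-fold. Start sites are those of coding transcripts in GENCODE M21. Shares have 95% Wilson intervals. Python 3.11.15, NumPy 2.4.6, pandas 2.3.3, SciPy 1.17.1, pysam 0.24.0 and Matplotlib 3.10.9 were used, and the overlap code was checked against bedtools 2.31.1 and on 5000 simulated peaks, where it found the 1441 planted domains and no other. Of the 752 genes of the domains, 582 were matched by symbol in the RefSeq promoter table, and of the 29 microRNA genes 17 in the microRNA table.

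The domains and the gene lists were chosen with earlier results of these data known. Named are the 20 widest domains, the 8 lowest and 8 highest width ratios, up to 12 domains of each gene list, 3 peaks on each side of 4 kb and the 5 domains with most villi H3K27me3. The H3K9me2 lists hold 6 and 3 peaks and were not compared. Further genes, namely Mycn, Cps1, Malat1, the microRNAs, genes with 2 domains and genes of the lists past the 12 widest (such as Dgat1, Apob and Hnf4a), were named after their values were seen. Alternatives covered the score, the overlap that counts as shared, merging of peaks under 1 kb apart, the width limit, the fold, the window at start sites and autosomes only. Some genes of the lists and families are not reported here.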

Additional observations from a re-analysis of the deposited data

How the results depend on the processing

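With 1 library per group no replicate could be left out. No paired analysis was possible because each group holds a single library. There were 704 domains at 4 kb, 1926 at a limit of 3 kb and 300 at 5 kb. The median log2 width ratio of 0.02 was 0.0043 at 3 kb and -0.024 when only the bases of the domain covered in villi were counted, a measure that cannot exceed 0. Counts of narrower and wider domains, 32 and 28, were 70 and 74 when the limit was a ratio of 5 to 4. There were 53 narrower domains by the widest villi peak, and 12 wider ones over all crypts peaks that met the same villi peaks. With the top 50% of each list by score, H3K4me1 in crypts met 88.7% of domains. Start sites of any gene type lay in 97.0% of domains, and villi H3K27me3 over at least 20% of a domain occurred in 0.284%. After merging of peaks under 1 kb apart, the ratios of Rnf167 with Slc25a11 and of Pfn1, in 1 merged region, came to -0.0066. Other alternatives kept counts within 1.5-fold and shares or medians within the 95% interval of the value given. Of 111 named domains, 102 kept their side of the limit over all crypts peaks, 109 by the widest villi peak and 99 after merging. Depth, unknown here, bears on how far a peak extends.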

Other observations

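Of the 881 villi peaks of 4 kb or more with crypts H3K4me3 and without villi H3K27me3, 316 met none of the 704 domains. Of these, 84 were wider in villi by over 1.5-fold, 2 were wider in crypts and 49 had a crypts width of 4 kb or more, a sum in which several crypts peaks can join. The highest ratio was at Tmigd1, an epithelial adhesion gene, with 4025 bp in villi and 631 bp in crypts. Skil, a repressor of Smad signalling, had 5501 bp in villi and 1697 bp in crypts. Further down were Cidec, of lipid droplets, with 5435 bp and 2175 bp, and Ms4a8a with 5345 bp and 2233 bp. These were picked as wide in villi, so their direction follows from the choice.

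The 12 crypts peaks of 4 kb or more that overlapped crypts H3K27me3 were at or beside Onecut2, Ptch1, Prdm16, Exoc3l4, Acbd4 with Plcd3, Lfng, Cdkn2b, Icam4 with Icam5, Barx2, Cux1, Nr4a3 and Nr2f2. Of these, 6 were narrower in villi to some degree, and the median log2 ratio was 0.02. Onecut2, a homeobox factor, had 7846 bp in crypts and 7418 bp in villi, Ptch1, the Hedgehog receptor, 6503 bp and 5961 bp, Prdm16 5670 bp and 3900 bp, and Lfng, a modifier of Notch, 4735 bp and 3188 bp. Exoc3l4 had 5228 bp in crypts and 10374 bp in villi, where the villi peak met crypts peaks of 7788 bp in all (log2 ratio 0.41). The cell cycle inhibitor gene Cdkn2b had 4573 bp and 5606 bp, Barx2 4286 bp and 5055 bp, and Nr4a3 4066 bp and 4426 bp. The 3 wide peaks without a villi counterpart lay at Utrn and nearest to Olfm4, a stem cell marker, and Cldn2, a claudin of crypts.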
